A study of Drosophila melanogaster with 8 samples.

Results

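The mitosis genes described here are 31 Drosophila genes listed by name for their work in cell division, from entry into mitosis to the cut between daughter cells. They were matched to the deposited tables by FlyBase identifier and symbol, and 29 of the 31 have a row among the 15438 gene rows. BubR1, a checkpoint kinase-like protein, and Cenp-C, a centromere protein, have no row under their current identifiers and are not analysed here. RNA-seq was done on 8 libraries of S2 cells, a hemocyte-like line from late embryos. Of these, 3 came from cells labelled mutant Beaf and 3 from cells labelled wild type Beaf, where Beaf (gene BEAF-32) encodes an insulator protein that binds near the promoters of many genes. The labels describe stable transfection of S2 cells with pUWG vectors that carry neomycin resistance and mutant Beaf, followed by G418 selection, and they do not say what the wild-type cells carried or how many colonies were pooled. A further library came from cells labelled as knockdown of CTCF, another insulator protein, by double-stranded RNA (400 µg, 5 days), and the last from its control, whose own treatment the labels do not give. The 6 Beaf libraries were deposited as 3 files of 1 mutant and 1 wild-type column each, called sets 1, 2 and 3 here, and a library is called by the number of its set. The labels name no separate cultures within a genotype, so p-values measure only the spread between these libraries. In bulk RNA, fewer cells in mitosis and less of an RNA per dividing cell cannot be told apart.

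Mitosis begins when the kinase Cdk1, held by A- and B-type cyclins, is freed of its inhibitory phosphates by the phosphatase String. Polo and the Aurora kinases then drive centrosome, chromosome and spindle changes, kinetochores built on the centromeric histone Cid catch microtubules, and kinesin motors shape the spindle. A checkpoint of Mad and Bub proteins and the Rod-Zw10 complex holds back Fizzy until every kinetochore is attached. Fizzy then marks securin and cyclins for destruction, separase cuts cohesin, and the central spindle directs cytokinesis. Many of these RNAs and proteins are made mainly in cycling cells, of which an S2 culture holds many.

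Gene reads numbered 1528041 to 1885689 in the Beaf libraries, 9267319 in the CTCF knockdown and 10963743 in its control, so a gene is known more closely in the CTCF pair. Values are given as CPM, the counts of a gene scaled to each library's total of gene reads. BEAF-32 itself stood at 1228, 1613 and 1929 CPM in the mutant libraries of sets 1, 2 and 3, against 25.0, 469 and 676 CPM in the wild-type libraries, and these reads do not separate a transgene from the resident gene. CTCF stood at 11.3 CPM in the knockdown and 55.4 CPM in the control. The libraries of set 1 stood apart: mutant library 1 had 3170 genes at 0, against 5564 to 6368 in the other Beaf libraries. Of 10 hemocyte markers, 7 exceeded 1 CPM in every library, and the list summed to 9512 to 12350 CPM in mutant and 1502 to 5839 CPM in wild-type libraries. The neuronal list (4 genes with a row) summed to 50.5 to 177.7 CPM in mutant and 45.1 to 54.2 CPM in wild-type libraries. Most of that sum was brp, at 130, 48.3 and 43.4 CPM in mutant and 53.7, 47.6 and 38.2 CPM in wild-type libraries. Syt1 reached 39.6 CPM in mutant library 1, and elav was at 0 in every library. The muscle list (3 genes) summed to 3.71 to 32.8 CPM in mutant and 0.471 to 6.88 CPM in wild-type libraries, and the germline list (2 genes) to 19.4 to 29.1 CPM in mutant and 2.36 to 11.1 CPM in wild-type libraries. The part of these differences in the results below was not tested.

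All 29 genes with a row had reads in every library. Per length, as RPKM (CPM divided by exon length in kilobases), the highest level in wild-type Beaf cells was that of ncd, a minus-end-directed kinesin that bundles spindle microtubules, at 82.1 ± 24.2 RPKM in mutant and 130.1 ± 4.46 RPKM in wild-type libraries (SD, n = 3 each). The next was stg (string), the Cdc25 phosphatase that activates Cdk1, at 77.7 ± 36.7 RPKM in mutant and 121.5 ± 5.83 RPKM in wild-type libraries. Among the other genes of mitotic entry the lowest was CycB3, a B-type cyclin, at 9.822 ± 1.049 RPKM in mutant and 11.6 ± 0.895 RPKM in wild-type libraries. The lowest levels in wild-type libraries were those of thr (a subunit that binds the separase protease), Ndc80 (outer kinetochore) and cid (the centromeric histone H3 variant). thr was at 10.4 ± 1.72 RPKM in mutant and 8.21 ± 1.57 RPKM in wild-type libraries. Ndc80 was at 8.45 ± 1.72 RPKM in mutant and 8.37 ± 1.58 RPKM in wild-type libraries, and cid at 6.59 ± 3.45 and 8.51 ± 3.13 RPKM. Their SDs overlap, so the order among those 3 is not resolved, and in mutant libraries pim at 8.42 RPKM and CycB3 also lay under thr. Within the other roles, wild-type levels ran from borr at 20.4 to Incenp at 47.6 RPKM in the chromosomal passenger complex, from Bub1 at 9.43 to Bub3 at 57.3 RPKM in the checkpoint, from asp at 21.0 RPKM up to ncd among spindle proteins, and from pav at 37.3 to tum at 46.1 RPKM at the midzone.

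**Figure D1:**
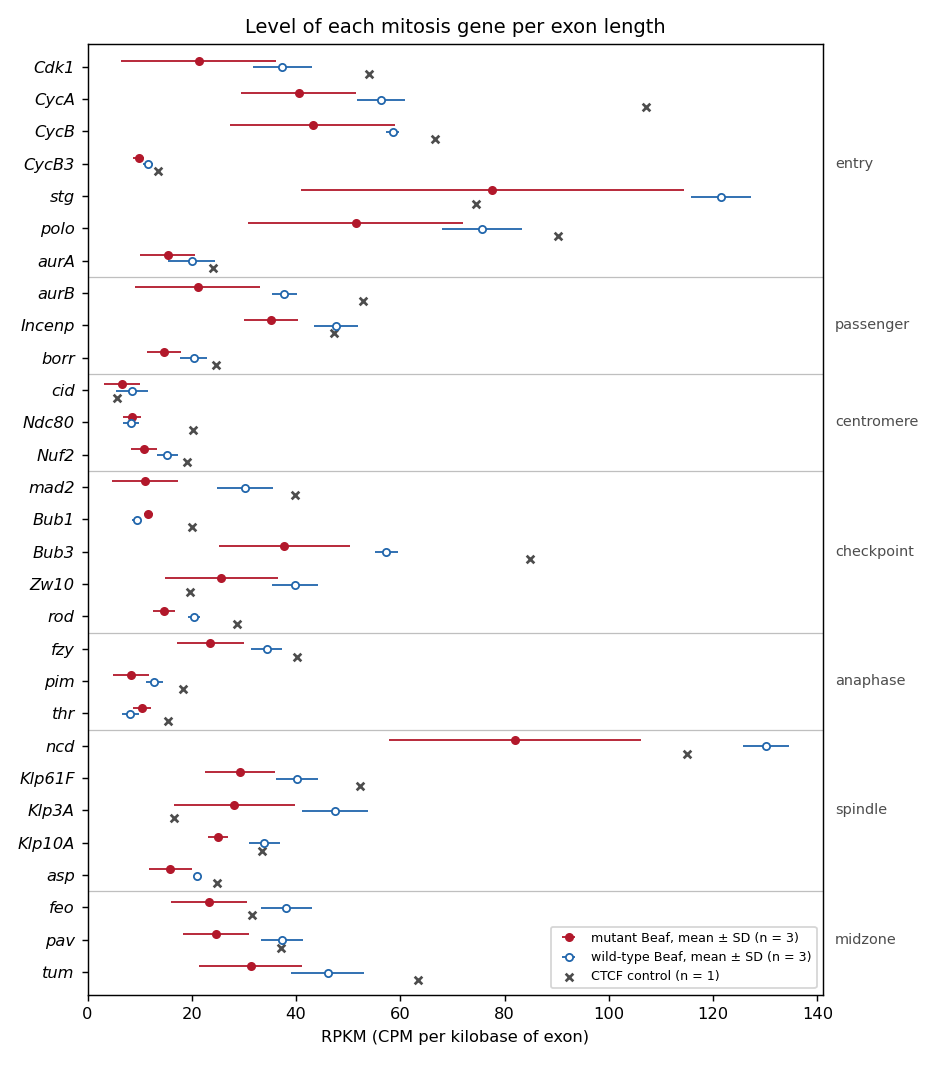
Level of each of the 29 mitosis genes per exon length (horizontal axis, RPKM), as mean ± SD of the 3 mutant Beaf libraries (filled), of the 3 wild-type Beaf libraries (open) and as the single value of the CTCF control (cross), with genes grouped by role down the page. ncd and stg lie far to the right of the others in both genotypes, and the mutant mean lies left of the wild-type mean for all genes shown except Ndc80, Bub1 and thr.

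Most of these genes were lower in mutant than in wild-type Beaf libraries, by a modest amount. Their summed level was 1453, 2561 and 2517 CPM in mutant libraries 1, 2 and 3, against 3352, 3045 and 3045 CPM in the wild-type libraries. Every mutant library lay below every wild-type library for 21 of 29 members, against 18.4% of the 6564 genes tested, and above for 1 member, Bub1, against 17.5%. With values scaled by TMM composition factors those counts were 22 and 2, with thr beside Bub1 in the second. The fitted log2 fold change, mutant over wild type, was below 0 for 26 of 29 members, against 51.9% of all genes. Its median over the members was −0.46, a ratio of 0.729, against −0.02 over all genes. The genotypes were also apart, without overlap, in read composition. Reads that did not align were 10.4%, 7.62% and 7.61% of mutant libraries 1, 2 and 3, against 0.79%, 3.32% and 3.55% of the wild-type libraries. Reads that the counting assigned to no feature were 85.6%, 87.4% and 87.4% in the mutant, against 94.0%, 91.7% and 91.3% in the wild type. Under a stranded count these would include reads within genes on the opposite strand, and the strand setting is not given. In both measures the libraries of set 1 were the furthest apart, and their part in the difference was not tested.

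Across all 6 libraries no mitosis gene passed the test. In limma-trend, with p-values adjusted by Benjamini-Hochberg over all genes at 0.05, 0 of 29 members and 0.0% of all genes were called. On recovered reads edgeR called 0 members and 0% of all genes, and DESeq2 called 0 members and 3.42% of all genes (1 lower and 219 higher). At an unadjusted p of 0.05 in limma-trend, 12 members were lower in the mutant, against 7.3% of all genes, and 0 were higher, against 12.1%. EdgeR had 12 and DESeq2 6 members lower at that p. The smallest adjusted p of a member was 0.214 in limma-trend, shared by mad2, ncd, rod and feo, 0.203 in edgeR and 0.0827 in DESeq2. Without mutant library 1, limma-trend called ncd, rod and mad2 lower, against 2.75% of all genes.

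The libraries of sets 2 and 3 were also compared alone, since those of set 1 stood apart, a comparison chosen with earlier results known. There 7 of 29 members were lower in the mutant by limma-trend, against 5.39% of the 6619 genes tested, and 0 were higher, against 9.34%. The 7 are ncd, Klp3A and Klp10A of the spindle, rod and mad2 of the checkpoint, stg of mitotic entry and feo of the midzone. The median log2 fold change over the 29 members was −0.27, a ratio of 0.830, against −0.01 over all genes, and 26 members were below 0, against 51.4%. EdgeR on recovered reads called 8 members lower, against 6.07% of all genes. DESeq2 on the same reads called 0 members, against 2.79% of all genes, with a smallest adjusted p of 0.108 (ncd) and 3 members lower at an unadjusted p of 0.05.

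**Figure D2:**
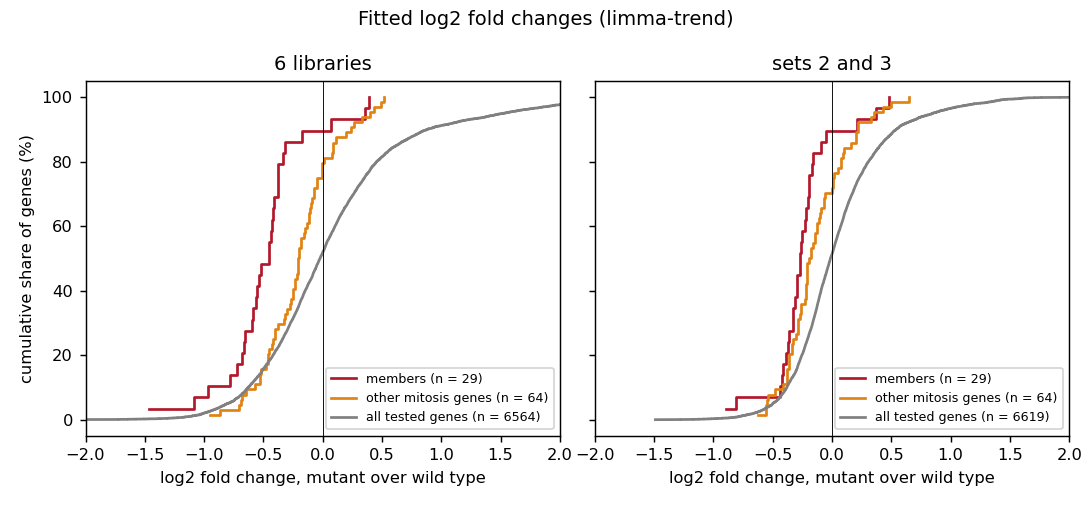
Cumulative share of genes (vertical axis, percent) by fitted log2 fold change, mutant over wild-type Beaf (horizontal axis, drawn from −2 to 2), from limma-trend on 6 libraries (left) and on the 4 libraries of sets 2 and 3 (right), for the 29 members, 64 other mitosis genes and all tested genes. The curve of the members lies left of that of all genes over most of its range, with medians of −0.46 against −0.02 (left) and −0.27 against −0.01 (right), and Bub1 and thr form its upper end.

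Among genes of mitotic entry, stg RNA was at 111, 327 and 276 CPM in the mutant cells of sets 1, 2 and 3, against 392, 359 and 365 CPM in the wild-type libraries. Every mutant library lay below every wild-type library, and mutant library 1 was far below the other two. In sets 2 and 3 the log2 fold change was −0.27 (SE 0.08, limma adjusted p = 0.0277), and without mutant library 3 the call was lost (−0.16, adjusted p = 0.362). The partners of Cdk1 and its helpers, CycA, CycB and the kinase gene polo, were likewise lower in every mutant library than in every wild-type library, with log2 fold changes of −0.20, −0.16 and −0.17 in sets 2 and 3 that did not pass (adjusted p = 0.158, 0.246 and 0.178). Cdk1, the mitotic kinase itself, stood at 4.95, 28.6 and 35.6 CPM in mutant and 41.5, 46.0 and 33.8 CPM in wild-type libraries. Its groups overlapped, and its value in mutant library 1 rests on 8 reads. CycB3 and aurA, the centrosomal Aurora kinase, also overlapped between genotypes, with log2 fold changes of −0.27 and −0.09 in sets 2 and 3 that did not pass (adjusted p = 0.391 and 0.844).

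The chromosomal passenger complex, which corrects faulty kinetochore attachments, is represented by its kinase aurB, its scaffold Incenp and the Borealin gene borr. All 3 were lower in every mutant library than in every wild-type library, and none passed the test in sets 2 and 3. The kinase gene aurB stood at 8.66, 33.9 and 32.4 CPM in mutant and 47.6, 44.4 and 42.0 CPM in wild-type libraries, with mutant library 1 again the lowest. Its log2 fold change in sets 2 and 3 was −0.37 (adjusted p = 0.153), beside −0.26 for Incenp (adjusted p = 0.093) and −0.39 for borr (adjusted p = 0.246).

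The centromere and kinetochore genes had the median log2 fold change nearest 0 of the roles, at −0.05 in sets 2 and 3 and −0.32 across 6 libraries. That rank is not resolved. The median of the passenger complex across 6 libraries was −0.41, and these genes rest on few reads. Their SEs in sets 2 and 3 were 0.26 for Nuf2, 0.26 for Ndc80 and 0.40 for cid. Nuf2, a partner of Ndc80 in the microtubule-binding complex, was lower in every mutant library, at 10.5, 14.3 and 16.8 CPM, against 20.3, 16.9 and 21.9 CPM in wild-type libraries, where mutant library 3 at 16.8 CPM and wild-type library 2 at 16.9 CPM nearly touch. Ndc80 stood at 15.5, 22.8 and 17.5 CPM in mutant and 20.7, 20.1 and 14.4 CPM in wild-type libraries, and cid at 5.57, 10.6 and 3.89 CPM in mutant and 12.3, 7.41 and 6.27 CPM in wild-type libraries. Both overlapped between genotypes. None of the 3 passed the test in sets 2 and 3, with log2 fold changes of −0.30, 0.21 and −0.05 for Nuf2, Ndc80 and cid.

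The checkpoint held both the largest fall and the only member above wild type in all libraries. mad2, whose protein binds and inhibits Fizzy at unattached kinetochores, had only 3.09, 11.7 and 12.3 CPM in the mutant libraries of sets 1, 2 and 3, against 26.9, 19.6 and 27.6 CPM in the wild-type libraries. The groups did not overlap, but the mutant values rest on 5, 22 and 19 reads and those of wild-type libraries 1 and 2 on 46 and 30. The value of 44 in wild-type library 3 is as deposited, and its reads could not be recovered. In sets 2 and 3 the log2 fold change was −0.90 (SE 0.26, limma adjusted p = 0.0257), a ratio of 0.537, and leaving out mutant library 2 or wild-type library 3 ended the call (−0.85 with adjusted p = 0.0655 and −0.68 with adjusted p = 0.195). rod, part of the kinetochore complex that recruits dynein, stood at 79.8, 103 and 102 CPM in mutant and 124, 138 and 135 CPM in wild-type libraries. The groups did not overlap, all 3 sets differed by a similar amount, and the fold change in sets 2 and 3 was −0.41 (SE 0.10, limma adjusted p = 0.00679). Zw10, a subunit of the same complex, stood at 34.0, 85.9 and 77.7 CPM in mutant and 115, 94.7 and 96.5 CPM in wild-type libraries, and Bub3, which docks the Bub kinases, at 31.6, 61.0 and 61.5 CPM in mutant and 81.5, 76.2 and 76.5 CPM in wild-type libraries. Neither passed in sets 2 and 3 (adjusted p = 0.189 for Zw10 and 0.0931 for Bub3), although their groups did not overlap. Bub1, a checkpoint kinase, stood at 48.9, 54.1 and 46.6 CPM in mutant and 43.8, 36.5 and 40.7 CPM in wild-type libraries. Its lowest mutant value lay just above its highest wild-type value, and the log2 fold change of 0.37 in sets 2 and 3 (SE 0.16, adjusted p = 0.134) did not pass.

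In the anaphase group, which triggers chromatid separation, no member passed. fzy, the Cdc20 activator of the anaphase-promoting complex, stood at 32.2, 55.7 and 53.1 CPM in mutant and 75.4, 66.7 and 63.9 CPM in wild-type libraries, with no overlap (log2 fold change −0.26 in sets 2 and 3, adjusted p = 0.207). pim, the securin that restrains separase, stood at 11.1, 9.02 and 4.53 CPM in mutant and 13.2, 13.8 and 10.7 CPM in wild-type libraries. Its 3 mutant values rest on 18, 17 and 7 reads. It was the only member with a higher level in mutant library 1 than in the mean of mutant libraries 2 and 3, and its log2 fold change of −0.81 in sets 2 and 3 had an SE of 0.35 (adjusted p = 0.137). Sse, the separase protease, is not a member but is in the wider list below. It stood at 9.28, 6.89 and 5.18 CPM in mutant and 15.1, 8.99 and 10.7 CPM in wild-type libraries. The log2 fold change of Sse in sets 2 and 3 was −0.62 (SE 0.34, limma adjusted p = 0.246). thr, a subunit that binds Sse, stood at 39.0, 49.3 and 54.4 CPM in mutant and 38.2, 30.2 and 44.5 CPM in wild-type libraries. Its groups overlapped in CPM over all 3 sets and did not overlap in sets 2 and 3, where its log2 fold change was 0.48 (SE 0.18, adjusted p = 0.0747). That value turned on the wild-type libraries, being 0.74 and called without wild-type library 3 (adjusted p = 0.00528) and 0.23 without wild-type library 2 (adjusted p = 0.491).

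All 5 spindle genes were lower in every mutant library than in every wild-type library, and 3 passed the test in sets 2 and 3. ncd reached 147, 259 and 263 CPM in the mutant libraries, against 355, 365 and 341 CPM in the wild-type libraries. The 3 wild-type values lay close together, and its log2 fold change of −0.44 in sets 2 and 3 (SE 0.08, limma adjusted p = 0.000473) had the smallest adjusted p of the members. Klp3A, a chromokinesin of the spindle midzone needed for cytokinesis, stood at 66.8, 154 and 161 CPM in mutant and 247, 192 and 205 CPM in wild-type libraries. Mutant library 1 was the lowest and wild-type library 1 the highest, and in sets 2 and 3 the log2 fold change was −0.33 (SE 0.09, limma adjusted p = 0.0119). Klp10A, a kinesin that takes apart microtubule ends, stood at 118, 130 and 139 CPM in mutant and 178, 188 and 158 CPM in wild-type libraries. Set 1 was only slightly wider apart than set 2 for this gene, and in sets 2 and 3 the log2 fold change was −0.36 (SE 0.10, limma adjusted p = 0.0186). The calls of both kinesins were lost without mutant library 2 (−0.29 with adjusted p = 0.0803 for Klp3A and −0.31 with adjusted p = 0.0766 for Klp10A). That of Klp3A was also lost without wild-type library 3 (−0.30, adjusted p = 0.0577), and that of Klp10A without wild-type library 2 (−0.22, adjusted p = 0.232). Klp61F, the kinesin that pushes spindle poles apart, and asp, which focuses the poles, had log2 fold changes of −0.19 and −0.22 in sets 2 and 3 that did not pass (adjusted p = 0.171 and 0.152).

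The midzone genes, whose proteins build the central spindle and position the cleavage furrow, did not overlap between genotypes in any of 3 cases. feo (fascetto), the microtubule bundler of the central spindle, reached 39.6, 74.8 and 55.1 CPM in the mutant libraries, against 105, 81.0 and 91.5 CPM in the wild-type libraries. Set 2 was the closest pair, and the log2 fold change in sets 2 and 3 was −0.42 (SE 0.14, limma adjusted p = 0.0462). That call was the least secure of the 7 and was lost under 6 of 13 alternatives, among them the one without mutant library 3 (−0.21, adjusted p = 0.467) and the one without wild-type library 3 (−0.35, adjusted p = 0.15). pav and tum encode the kinesin and the GTPase-activating protein of the centralspindlin complex. pav stood at 57.6, 82.2 and 97.8 CPM in mutant and 133, 107 and 118 CPM in wild-type libraries (log2 fold change −0.33 in sets 2 and 3, SE 0.11, adjusted p = 0.0542), just short of the threshold. It was called without wild-type library 2 (−0.39, adjusted p = 0.0383) and without mutant library 3 (−0.46, adjusted p = 0.0166), and had −0.20 without mutant library 2 (adjusted p = 0.412). tum stood at 48.3, 79.0 and 93.9 CPM in mutant and 126, 94.2 and 105 CPM in wild-type libraries (log2 fold change −0.21 in sets 2 and 3, adjusted p = 0.265).

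**Figure D3:**
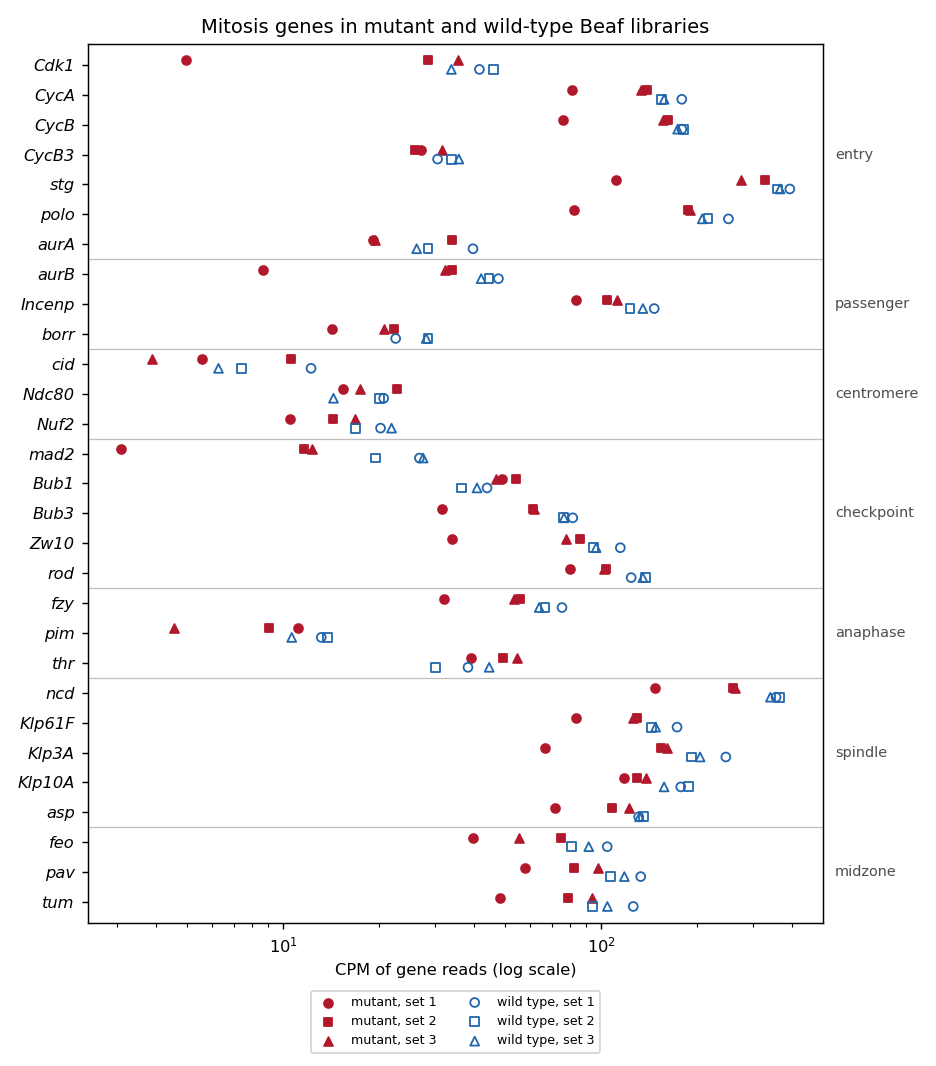
CPM of each of the 29 mitosis genes (horizontal axis, log scale) in the 3 mutant (filled) and 3 wild-type (open) Beaf libraries, with the marker shape giving the set and genes grouped by role. For 21 genes all filled markers lie left of all open ones, the filled circle of set 1 is the leftmost marker for 23 genes, and Bub1 has its filled markers right of its open ones.

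The difference was unequal across the sets. In set 1 the median log2 ratio of the members, mutant over wild type with 0.5 CPM added, was −1.14, against −0.18 over all genes, and with TMM scaling −1.01 against −0.05. In set 2 it was −0.25, against 0.02 over all genes, and in set 3 −0.28, against −0.03. The ratio was below 0 on the log2 scale for 27, 24 and 25 of the 29 members in sets 1, 2 and 3, against 56.8%, 46.9% and 52.7% of all genes. It had the same sign in all 3 sets for 25 members, with 23 lower (against 27.1% of all genes) and Bub1 and thr higher (against 24.1%). The 23 are CycA, CycB, CycB3, stg, polo, aurB, Incenp, borr, Nuf2, mad2, Bub3, Zw10, rod, fzy, pim, ncd, Klp61F, Klp3A, Klp10A, asp, feo, pav and tum. Cdk1, aurA, cid and Ndc80 changed sign between sets.

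Both libraries of set 1 lay away from the others of their genotype, in opposite directions. Mutant library 1 was below the mean of mutant libraries 2 and 3 for 28 members, against 62.3% of all genes, with a median ratio of 0.624 over the members and 0.845 over all genes. It held the lowest of the 6 values for 23 members, against 46.4% of all genes. For 25 members wild-type library 1 exceeded the mean of the other 2 wild-type libraries, whereas it lay below that mean for 60.1% of all genes. The median ratio was 1.13 over the members and 0.957 over all genes. Wild-type library 1 held the highest of the 6 values for 15 members, against 18.4% of all genes. BEAF-32, as given above, was lowest in those same libraries of each genotype, and its part in the difference was not tested. The ratio within set 1 was widest for mad2 at 0.115, Cdk1 at 0.119 and aurB at 0.182, and narrowest among the members that were lower for CycB3 at 0.889 and pim at 0.845. rod and Klp10A, by contrast, had ratios of 0.642, 0.749 and 0.756 (rod) and 0.664, 0.690 and 0.878 (Klp10A) in sets 1, 2 and 3.

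**Figure D4:**
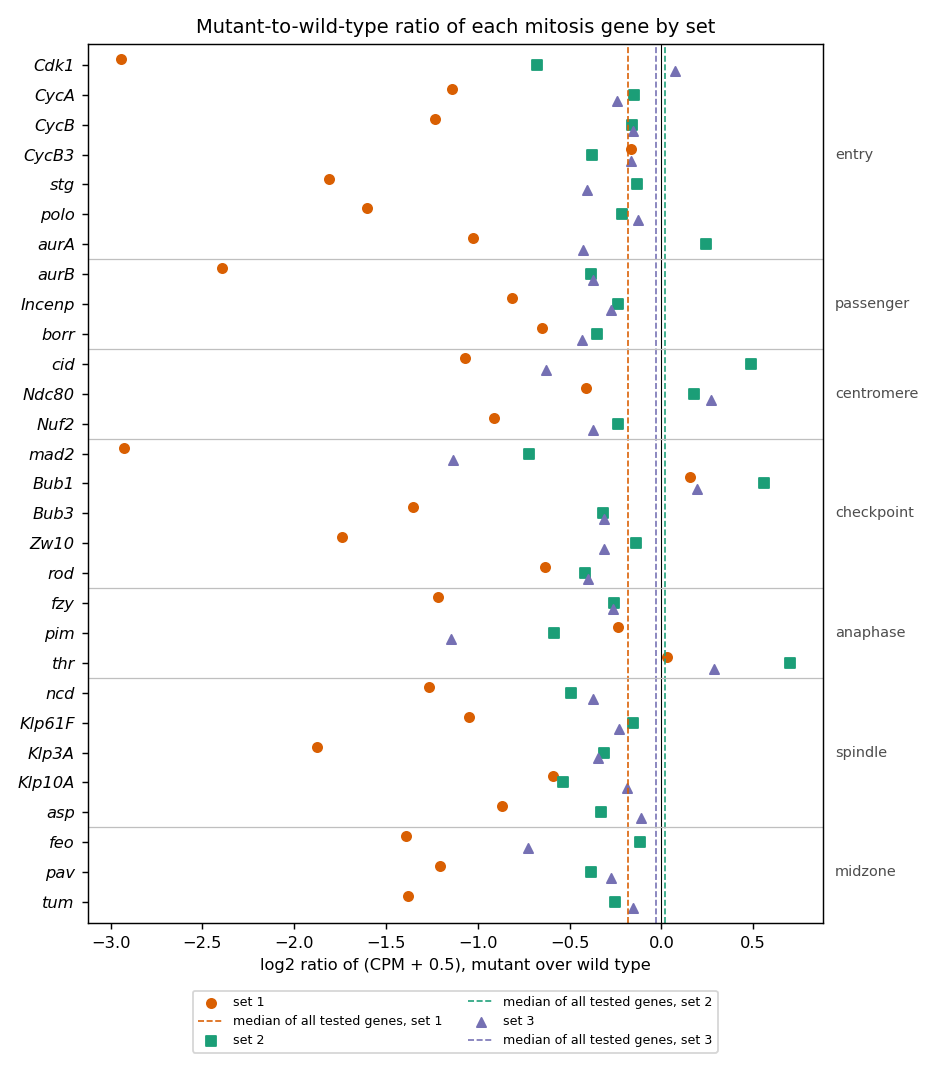
Log2 ratio of CPM + 0.5, mutant over wild-type Beaf, of each mitosis gene within each of the 3 sets (horizontal axis), with dashed lines at the median of all tested genes in that set and genes grouped by role. Points of set 1 reach −2.94 (Cdk1) and have a median of −1.14, whereas those of sets 2 and 3 gather around −0.25 and −0.28.

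By the BDGP6.54 annotation, which need not be the one the authors counted with, the 29 genes are spread over 5 chromosome arms, with 7 on 2L, 5 on 2R, 5 on 3L, 7 on 3R and 5 on X. The 7 that passed lie at 3R:29804290-29807127 (ncd, minus strand), 3R:31580951-31588244 (rod, plus strand), 3R:29251826-29255800 (stg, minus strand), 3L:5812135-5813093 (mad2, minus strand), X:2599158-2604052 (Klp3A, minus strand), X:11129362-11137118 (Klp10A, minus strand) and X:10852446-10854869 (feo, minus strand). A protein-coding gene starts on the opposite strand within 500 bp upstream for 14 of the 29 (48.3%). The share was 25.1% over the 13122 protein-coding genes with a row, a background not limited to expressed genes. All 29 members had reads in every library, so these shares are not closely comparable. Members of 1 head-to-head pair are both in the list. The starts of Klp3A and Zw10 lie 145 bp apart, and both were lower in every mutant library. They also share another feature. The wild-type Beaf mean was 214.6 CPM for Klp3A and 102 CPM for Zw10, against 75.3 and 50.5 CPM in the CTCF control, whereas the median ratio of wild-type Beaf mean to CTCF control was 0.834 over the members and 0.672 over all genes. Libraries of the Beaf lines and the CTCF pair differ in depth and in the share of reads assigned to no feature. That share was 85.6% to 94.0% in the Beaf lines, 6.93% in the knockdown and 8.05% in the control. The contrast between the Beaf lines and the CTCF control was therefore not tested.

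Partners of the other pairs did not all move with the member. Cap-D2, a condensin subunit whose start lies 230 bp from that of Bub3, stood at 53.8, 88.0 and 91.3 CPM in mutant and 129, 107 and 134 CPM in wild-type libraries, and was lower in sets 2 and 3 (log2 fold change −0.42, SE 0.11, limma adjusted p = 0.0164). The other 10 partners outside the list that have a row did not pass, with log2 fold changes of −0.36 to 0.26, and pygo, the partner of rod, had 0.15 where rod had −0.41. Another gene overlaps 2.87% to 15.9% of exon bases in 9 of the 29 members, and the strand setting of the counting is not given, so these are less certain. Among the 7 they are ncd (15.3%, with CG7789 and ca) and mad2 (11.5%, with kri).

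Of a wider list of 74 other mitosis genes, 69 have a row and 64 were tested. In sets 2 and 3, 7 of the 64 were called lower by limma-trend, against 5.39% of all genes, and 0 higher, against 9.34%. EdgeR on recovered reads called 9 of the 64 lower, against 6.07% of all genes. DESeq2 called 0 of the 64, against 2.79% of all genes, with 2 lower at an unadjusted p of 0.05. Fewer of the 64 were called by limma-trend whenever 1 library was left out, as was so over all genes. The fitted log2 fold change was below 0 for 45 of the 64 in sets 2 and 3, against 51.4% of all genes, and for 51 across 6 libraries, against 51.9%. Its median was −0.19 in sets 2 and 3 and −0.20 across 6 libraries. Of the 7 called lower, 4 act in cytokinesis: scra (anillin), at 149, 228 and 222 CPM in mutant and 317.5, 284 and 286 CPM in wild-type libraries (log2 fold change −0.34, adjusted p = 0.00427), Rho1 (−0.26, 0.0224), and the septins pnut (−0.29, 0.0386) and Septin1 (−0.38, 0.0151). endos, an inhibitor of the phosphatase PP2A at mitotic entry, stood at 26.6, 53.0 and 63.5 CPM in mutant and 86.7, 89.4 and 82.7 CPM in wild-type libraries (−0.56, 0.00566). mts, the catalytic subunit of that phosphatase, and mud, which orients the spindle, had −0.26 (0.0416) and −0.27 (0.0306). Across 6 libraries limma-trend, edgeR and DESeq2 each called 0 of the 64. At an unadjusted p of 0.05 in limma-trend 11 were lower, against 7.3% of all genes, and 1 was higher, the gamma-tubulin ring subunit Grip91, against 12.1%. Without mutant library 1, 3 of the 64 were called lower, against 2.75% of all genes.

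After CTCF knockdown the mitosis genes stayed close to the control. With 1 library on each side there is no test, and a gene is called where CPM differed by more than 1.5-fold and reached 10 CPM in either library. Of the 28 members at that level, 0 were called, against 0.583% of 6172 genes lower and 1.62% higher. cid, at 6.37 CPM in the knockdown and 5.75 CPM in the control, fell under the minimum. The summed level was 3239 CPM in the knockdown and 3355 CPM in the control, and the median ratio was 0.962 (log2 −0.055), against 1.03 (0.048) over all genes.

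The extremes were aurA and Bub3. aurA stood at 48.8 CPM in the knockdown (452 reads) and 37.9 CPM in the control (415 reads), a ratio of 1.29 with a 95% counting interval of 1.13 to 1.48. Bub3 stood at 94.7 CPM in the knockdown (878 reads) and 116 CPM in the control (1268 reads), a ratio of 0.819 with an interval of 0.751 to 0.894. These intervals cover counting error only, not the spread between cultures. The interval lay above 1 for aurA and fzy, below 1 for CycA, Incenp, Bub3, rod, ncd, Klp61F, asp and tum, and held 1 for 19 members. Intervals were not computed for other genes, so no share over all genes stands beside these counts. The median ratio over all genes was 1.03 and not 1. Of the 7 members lower in mutant Beaf libraries, ratios in the CTCF pair ran from 0.912 (rod) to 0.986 (feo). mad2 stood at 31.5 CPM in the knockdown and 32.6 CPM in the control, a ratio of 0.968 (0.826 to 1.13), ncd at 296.8 CPM in the knockdown and 312.5 CPM in the control, a ratio whose interval was 0.903 to 0.999, and stg at 219 CPM in the knockdown and 228 CPM in the control, a ratio of 0.961 (0.906 to 1.019). Bub1 and thr had ratios of 1.09 and 1.10, with intervals that hold 1.

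**Figure D5:**
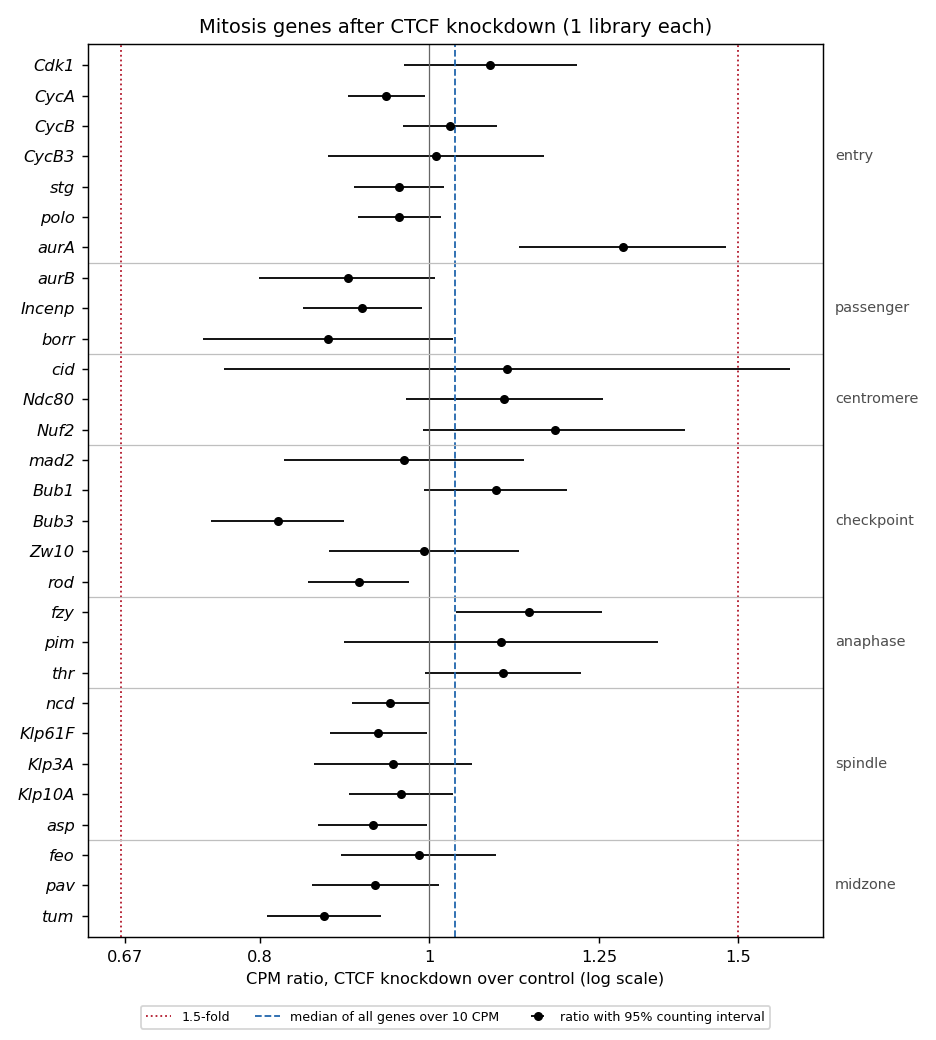
Ratio of CPM, CTCF knockdown over control (horizontal axis, log scale), of each of the 29 mitosis genes with its 95% counting interval, with dotted lines at 1.5-fold either way and a dashed line at the median of all genes over 10 CPM. The points run from 0.819 (Bub3) to 1.29 (aurA), and none passes a dotted line.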

How the data were processed

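Values for each gene were taken from the deposited tables of 8 RNA-seq libraries. The authors used CASAVA 1.8, BWA and HTSeq, per the submitters' processing notes, and no genome build, annotation or strand setting is given in the sources used here. The deposited mutant and knockdown columns hold raw read counts per gene. The deposited wild-type and control columns hold a signal. In wild-type libraries 1 and 2 and the control it was read from the values as counts multiplied by 1 factor per column (1.23, 1.24 and 1.30) and rounded. Dividing by these factors gave whole reads for 99.96%, 100% and 99.99% of positive values, against 81.0%, 80.8% and 77.1% by chance. A value counts as whole if the nearest whole read times the factor rounds back to it exactly. No factor was found for wild-type library 3 in the range searched. That library was used as deposited, also in the tests named as on recovered reads. Totals and tests leave out the 5 rows of reads with no gene. Of these, reads assigned to no feature made up 85.6% to 94.0% of the Beaf libraries, 6.93% of the knockdown and 8.05% of the control.

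Since a rescaled column is no longer a count, limma-trend (limma 3.58.1, edgeR 4.0.16, R 4.3.3) was the main test, run on log2 CPM of the deposited values, with TMM factors, filterByExpr, a prior count of 2 and two-sided p-values adjusted by Benjamini-Hochberg at 0.05. edgeR's quasi-likelihood test and DESeq2 1.42.0 on recovered reads, other scalings, filters and prior counts, and leaving out each library were alternatives. All 29 members with a row passed the filter in both comparisons. CTCF ratios used recovered control reads. Exon lengths and neighbours came from the BDGP6.54 annotation, and no sequence was used here. Figures used matplotlib 3.10.9. The members, the other lists, the comparison of sets 2 and 3 and the markers were chosen with earlier results of these data known. Members past the threshold in either Beaf comparison, or past 1.5-fold in the CTCF pair, were to be described in full, and Bub1, thr, Cdk1, aurB and others were added after their values were seen.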

Additional observations from a re-analysis of the deposited data

How the results depend on the processing

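Across 6 libraries, 0 members were called under each scaling, filter, prior count, tool and the replicate block, and leaving out 1 library gave 0 to 3, the 3 being ncd, rod and mad2 without mutant library 1. The median member log2 fold change ran from −0.60 without a filter, which moved the median of all genes to 0.197, to −0.34 without mutant library 1. In sets 2 and 3 the 7 calls became 0 with DESeq2, and leaving out 1 library gave 4 to 7 (of 660 to 897 genes called in all), with medians of −0.32 to −0.26, where the lone library of a genotype is assumed to vary like the others. These are not always the same members: pav came in without wild-type library 2 (Klp10A lost) and without mutant library 3 (stg and feo lost), thr came in as higher without wild-type library 3 (Klp3A, feo and mad2 lost), and Klp3A, Klp10A and mad2 were lost without mutant library 2. ncd and rod were lost only with DESeq2, and feo also with no composition factor, no filter and a prior count of 0.5. The cause was not tested. Deviations from the genotype mean correlated within a set at −0.157, −0.119 and −0.084, and at 0.006 in sets 2 and 3. Between sets they correlated at −0.121 to 0.141. With so few libraries these values cannot decide whether set numbers pair the libraries, and ratios within a set follow the deposited grouping only. With the replicate block 9 members (of 1230 genes) were called in sets 2 and 3, pav (lower) and thr (higher, limma adjusted p = 0.0244) being added. Of the other 64 mitosis genes 13 were called, all lower, in place of 7. Over all 6619 genes 490 were called lower and 740 higher, in place of 357 and 618. A fold limit under 1.5-fold in the CTCF pair called 1 member, aurA (ratio 1.29). No share over all genes past that smaller limit stands beside this count, so it cannot be weighed against the background. TMM factors in the CTCF pair gave a median member log2 ratio of −0.119. No fold change of the 7 reversed. At these depths, members under about 20 CPM rest on few reads.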
